A study of Mus musculus with 6 samples.

Results

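The genes described here act in repair of the muscle cell membrane (the sarcolemma) and in its caveolae. They are the repair genes Dysf, Ano5, Capn3 and Trim72, the caveolar genes Cav3 and Cavin1, and the annexins Anxa1, Anxa2, Anxa5 and Anxa6. These 10 genes were picked by name and matched through their RefSeq accessions, from 34656 genes in all. The study sequenced polyA RNA from cultured mouse muscle cells in 2 genotypes: SFPQ_KO, from SfpqSM-KO mice (3 libraries), and Cont, from control mice (3 libraries). In both, primary myoblasts, the precursors of muscle fibres, came from skeletal muscle of male mice aged 1 month, were expanded in a medium with basic fibroblast growth factor and were then kept for 4 days in 2% horse serum, in which they stop dividing and fuse into myotubes. The sources used here do not give how the knockout was driven, which alleles the controls carried or whether mice were pooled. Nothing ties each library to its own mouse or culture, so the p-values below measure the spread between these libraries, which may be partly technical.

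A tear in the sarcolemma lets calcium into the fibre, and calcium drives the repair machinery. Dysferlin brings vesicles to the wound, the Trim72 protein helps to gather them there, and annexins bind the exposed phospholipids and seal the edge. Caveolae are small pits of the membrane that flatten under stretch, built in muscle from caveolin 3 and coated by cavins. Loss of Dysf, Ano5, Capn3 or Cav3 causes muscular dystrophy or related myopathy in humans.

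Levels are in TPM, transcripts per 1000000 transcripts, a unit that takes transcript length into account, so genes can be compared with each other. TPM keeps no record of read depth, and the depth behind each value is unknown. Sfpq, the targeted gene and a nuclear RNA-binding protein, stood at 18.3, 19.3 and 14.1 TPM in the knockout libraries, against 48.6, 60.5 and 49.9 TPM in the control libraries. These groups lay far apart, with a log2 difference of −1.57 (SE 0.15, limma adjusted p = 0.0531), and the protein-coding gene Zmym1 overlaps Sfpq on the other strand. The 9 myotube markers summed to 68870 to 75012 TPM in knockout and 63111 to 69296 TPM in control. For 2 of them, Acta1 and Des, every knockout library lay above every control library, and the reverse held for 0. The shares over all tested genes were 4.27% and 15.3%. Of the 9 log2 differences, 5 were above 0 and 4 below, from −0.50 for Myh8 to 0.43 for Myh3. Markers of other cell types were low for endothelium (at most 0.451 TPM in knockout and 0.379 TPM in control over 6 genes, with Emcn and Tie1 at 0), macrophages (at most 2.13 and 2.05 TPM over 6 genes, with Ptprc, Adgre1 and C1qa at 0), Schwann cells (at most 1.53 and 1.11 TPM over 5 genes) and adipocytes (at most 1.87 and 1.54 TPM over 6 genes). Fibroblast and mesenchymal markers, 11 of 12 of which were found, summed to 195 to 255 TPM in knockout and 212 to 369 TPM in control, with Tcf21 at 0 in all libraries, Lum at 0 in all but Cont 2, and Pdgfra averaging 0.608 TPM in knockout libraries and 1.07 TPM in control libraries. Dividing-cell markers (8 genes) summed to 7.55 to 22.2 TPM in knockout and 23.6 to 30.9 TPM in control, so these groups did not overlap. The low adipocyte sums, mostly from Pparg, did not overlap either, at 1.59 to 1.87 TPM in knockout and 1.09 to 1.54 TPM in control. The 5 myoblast markers summed to 686 to 765 TPM in knockout and 444 to 795 TPM in control. Most of each sum was Myod1, at 569 to 604 TPM in knockout and 274 to 619 TPM in control. Its log2 difference was 0.42. The other 4 were below 0, at −0.68 for Myf5, −0.51 for Vcam1, −0.38 for Pax7 and −0.28 for Sdc4. None of the 5 passed (limma adjusted p from 0.394 to 0.579). In cultures of this kind, fewer cells of a type and less RNA per cell cannot be told apart.

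All 10 genes were clearly present in both genotypes, and none passed the test for a difference between them. Each passed the filter on low values, a TPM of 1 or more in at least 3 libraries, in both groups alike. In the limma test over 12461 genes, 0 of the 10 reached an adjusted p under 0.05, with adjusted p values of 0.473 to 0.993. Across the whole table the same rule called 0 genes higher (0%) and 0 genes lower (0%), with 0.0531 as the lowest adjusted p, which is also the value of Sfpq. At an unadjusted p under 0.05 there were again 0 of the 10, where 2.68% of all tested genes (334 genes) were higher and 9.62% (1199 genes) lower in knockout. The knockout and control libraries overlapped for every one of the 10, where 4.27% of all tested genes had every knockout library above every control library and 15.3% the reverse. On the log2(TPM + 1) scale 6 of the 10 had a difference above 0 and 4 below, with a median of 0.059, beside a median of −0.069 over all tested genes.

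The order of the 10 genes by mean level was the same in the knockout and control libraries. From the highest, it ran Trim72, Cav3, Anxa6, Anxa2, Cavin1, Anxa1, Capn3, Dysf, Anxa5 and Ano5. Trim72 ranked 116 and Ano5 ranked 2540 by mean TPM among the 12461 tested genes. Several neighbours in this order were not separated. In knockout the library ranges overlapped for Cav3 and Anxa6, Anxa6 and Anxa2, Anxa1 and Capn3, Dysf and Anxa5, and Anxa5 and Ano5. In control they overlapped for Trim72 and Cav3, Cav3 and Anxa6, Anxa1 and Capn3, Capn3 and Dysf, and Dysf and Anxa5. Together the 10 genes made up 4271, 3281 and 3672 TPM in the knockout libraries and 2981, 3994 and 3149 TPM in the control libraries.

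**Figure D1:**
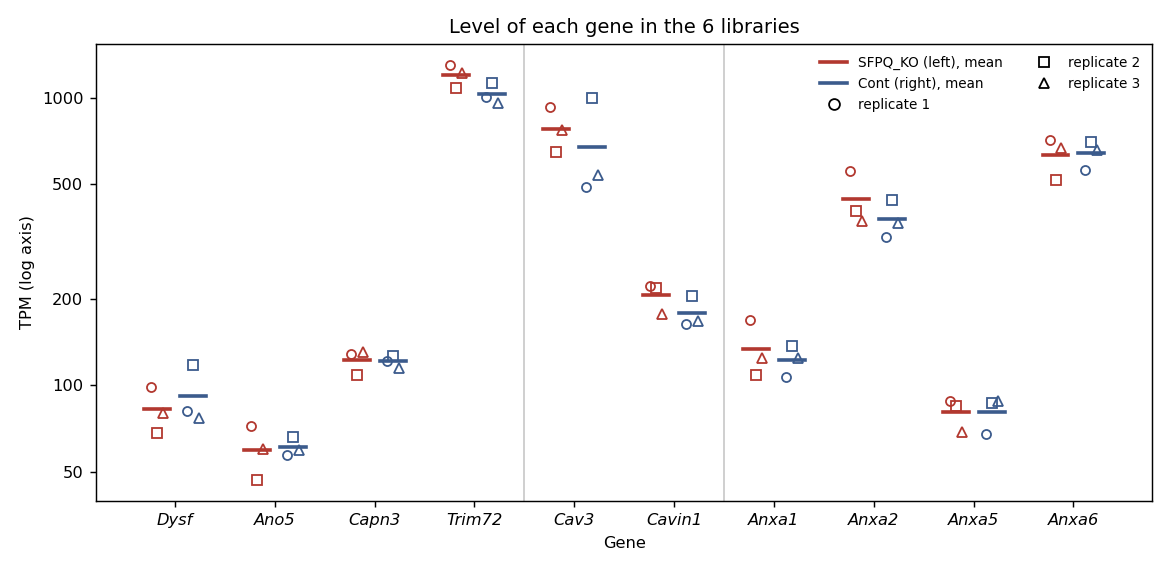
Level of each of the 10 genes in TPM on a log axis, with 1 point per library, its shape giving the replicate number, and a bar at the group mean. For each gene the SFPQ_KO libraries stand left of the Cont libraries, and the 2 groups overlap for every gene.

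Among the repair genes, Trim72 came nearest to a difference. It encodes a muscle-restricted E3 ligase, also called MG53, that moves vesicles to membrane wounds. It stood at 1301, 1082 and 1221 TPM in the knockout libraries, against 1006, 1122 and 955 TPM in the control libraries (means 1202 ± 111 and 1028 ± 85.9 TPM, SD, n = 3 each). The groups overlapped only through the lowest knockout library, SFPQ_KO 2, and the highest control library, Cont 2. The log2 difference was 0.22 (SE 0.11, limma adjusted p = 0.473), and its 95% interval ran from −0.05 to 0.50, or from 0.967-fold to 1.41-fold. The unadjusted p was 0.0920, and it was 0.0451 without Cont 2 (log2 difference 0.29) and 0.0321 after median-of-ratios scaling (0.30). The difference stayed above 0 in all 16 alternatives. The gene lies on chromosome 7 (128003462 to 128011393, GRCm38, plus strand) and spans 7.93 kb, with the antisense gene Gm15533 overlapping on the other strand.

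Dysf encodes dysferlin, the calcium-binding ferlin that carries vesicles to the wound. Its level was 98.6, 68.2 and 80.0 TPM in the knockout libraries, against 81.5, 117 and 76.7 TPM in the control libraries (means 82.3 ± 15.3 and 91.9 ± 22.3 TPM, SD, n = 3 each). The highest value of all was in Cont 2 and the lowest in SFPQ_KO 2, with the other libraries mixed between. Knockout minus control gave −0.15 on the log2 scale (SE 0.20, limma adjusted p = 0.788, 95% interval −0.62 to 0.33), and without Cont 2 it turned to 0.04. The series title speaks of long genes, and Dysf is the longest of the 10 by genomic span, 203 kb on chromosome 6 (84008361 to 84211060, plus strand). Over the 484 tested genes that span at least 200 kb the median log2 difference was −0.20. The median was −0.11 for the 2572 genes of 50 to 200 kb, the bin of Ano5 and Anxa6. It was −0.053 for the 8898 genes under 50 kb, the bin of the other 7. The 95% interval of Dysf holds 0 and each of these medians, so it cannot tell them apart. The Dysf value comes from a predicted RefSeq transcript model, and 2 antisense genes and a processed pseudogene lie within its span.

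Ano5, an anoctamin of the scramblase and channel family that takes part in repair, was the lowest of the 10 genes. It stood at 71.9, 46.7 and 59.8 TPM in the knockout libraries, against 57.2, 65.7 and 59.5 TPM in the control libraries (means 59.5 ± 12.6 and 60.8 ± 4.41 TPM, SD, n = 3 each). All 3 control values lay inside the range of the knockout libraries. On the log2 scale the difference was −0.05 (SE 0.16, limma adjusted p = 0.916, 95% interval −0.43 to 0.33), and its sign turned without SFPQ_KO 2 (0.11), without Cont 2 (0.0069) and after median-of-ratios scaling (0.024). Its span of 88.7 kb on chromosome 7 (51510007 to 51598707, plus strand) overlapped no other annotated gene.

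Capn3, the muscle calpain protease that acts on sarcomere and membrane-associated proteins, varied least. It stood at 128, 108 and 130 TPM in the knockout libraries, against 122, 127 and 114 TPM in the control libraries (means 122 ± 11.9 and 121 ± 6.19 TPM, SD, n = 3 each). Its log2 difference was 0.01 (SE 0.10, limma adjusted p = 0.973), and the 95% interval of −0.22 to 0.25, or 0.857-fold to 1.19-fold, was the narrowest of the 10. The sign turned without SFPQ_KO 1 (−0.02), SFPQ_KO 3 (−0.04) or Cont 3 (−0.03). The gene spans 41.3 kb on chromosome 2 (120463593 to 120504919, plus strand).

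Cav3, caveolin 3, is the muscle caveolin that forms the caveolar scaffold and binds dysferlin. It varied most between libraries of 1 genotype, at 926, 647 and 769 TPM in the knockout libraries, against 487, 994 and 540 TPM in the control libraries (means 781 ± 140 and 674 ± 279 TPM, SD, n = 3 each). Cont 1 and Cont 3 lay below every knockout library, while Cont 2 lay above every one. The log2 difference was 0.27 (SE 0.28, limma adjusted p = 0.722), with a 95% interval of −0.40 to 0.95, so a 1.93-fold increase in knockout lies at its upper end. Without Cont 2 the difference was 0.59 (unadjusted p = 0.0123, adjusted p = 0.213), and without Cont 1 it was 0.08. It was 0.14 without SFPQ_KO 1, 0.40 without SFPQ_KO 2 and 0.15 without Cont 3. The gene spans 13.4 kb on chromosome 6 (112459505 to 112472872, plus strand) and overlaps no other annotated gene.

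Cavin1, also known as Ptrf, is the coat protein that caveolae need in every tissue that has them. It stood at 221, 218 and 176 TPM in the knockout libraries, against 164, 204 and 167 TPM in the control libraries (means 205 ± 24.9 and 178 ± 22.3 TPM, SD, n = 3 each). SFPQ_KO 1 and SFPQ_KO 2 lay above all control libraries and SFPQ_KO 3 among them. Its log2 difference was 0.20 (SE 0.13, limma adjusted p = 0.569, 95% interval −0.11 to 0.51), above 0 in all 16 alternatives, and the unadjusted p of 0.171 became 0.0486 after median-of-ratios scaling (log2 difference 0.27). The gene spans 13.9 kb on chromosome 11 (100956736 to 100970617, minus strand).

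The annexins are calcium-dependent phospholipid-binding proteins that gather at membrane wounds. Anxa2, which pairs with S100a10 at the membrane, stood at 557, 402 and 373 TPM in the knockout libraries, against 329, 442 and 365 TPM in the control libraries (means 444 ± 99.0 and 379 ± 57.8 TPM, SD, n = 3 each). SFPQ_KO 1 alone lay above all control libraries. Its log2 difference was 0.22 (SE 0.18, limma adjusted p = 0.650, 95% interval −0.21 to 0.65), and it was 0.04 without SFPQ_KO 1, 0.12 without Cont 1 and 0.33 without SFPQ_KO 3 or Cont 2. Anxa1, known in addition as a mediator that limits inflammation, stood at 168, 108 and 124 TPM in knockout, against 106, 136 and 124 TPM in control. Here too SFPQ_KO 1 was the single high library, and the log2 difference of 0.11 (SE 0.18, adjusted p = 0.833, 95% interval −0.32 to 0.53) became −0.07 without it. Anxa2 lies on chromosome 9 (69453683 to 69491792, plus strand) and Anxa1 on chromosome 19 (20373434 to 20390671, minus strand).

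The other two annexins averaged 632 ± 102 and 640 ± 71.0 TPM (Anxa6) and 80.5 ± 10.2 and 80.8 ± 11.3 TPM (Anxa5) in knockout and control (SD, n = 3 each). Anxa6, a large annexin with a doubled core that caps the wound in muscle fibres, stood at 711, 517 and 669 TPM in the knockout libraries, against 561, 699 and 660 TPM in the control libraries. Every control value lay within the knockout range, and the log2 difference was −0.02 (SE 0.15, limma adjusted p = 0.959, 95% interval −0.38 to 0.33). Anxa5, which forms a lattice on exposed phosphatidylserine, stood at 87.8, 84.8 and 68.9 TPM in knockout, against 67.8, 86.9 and 87.8 TPM in control. Its groups overlapped almost wholly, and the log2 difference was −0.0042 (SE 0.14, adjusted p = 0.993, 95% interval −0.34 to 0.33). The signs of both turned above 0 after median-of-ratios scaling (0.05 for Anxa6 and 0.07 for Anxa5) and without Cont 2 (0.04 and 0.05). Anxa6 also turned without SFPQ_KO 2 (0.11), and Anxa5 without SFPQ_KO 3 (0.10) or Cont 3 (0.06). Anxa6 lies on chromosome 11 (54978953 to 55033471, minus strand) and Anxa5 on chromosome 3 (36448923 to 36475887, minus strand). None of the 10 genes overlapped a protein-coding gene.

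**Figure D2:**
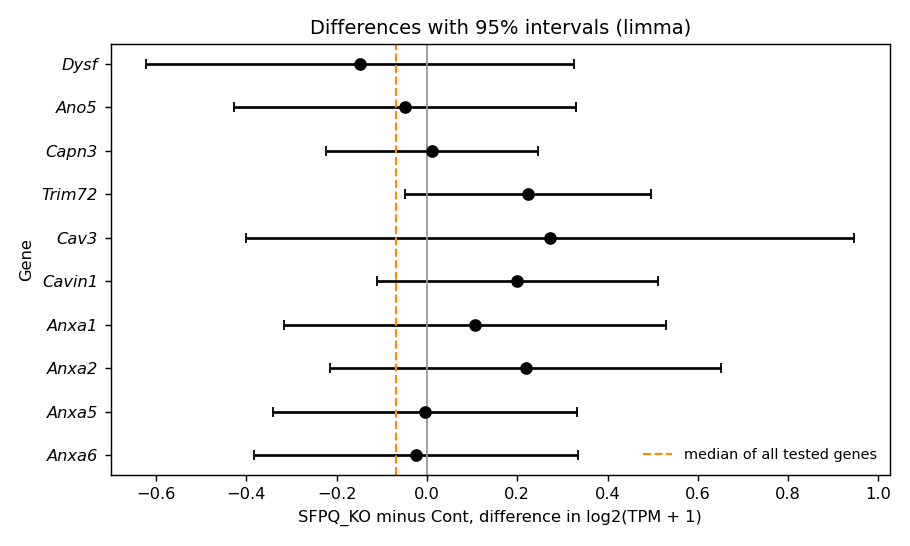
Difference of each gene between SFPQ_KO and Cont in log2(TPM + 1), with the 95% interval from limma. Every interval crosses 0, and they run from the narrowest at Capn3 (−0.22 to 0.25) to the widest at Cav3 (−0.40 to 0.95); the dashed line marks the median of all tested genes, −0.069.

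Most of the 10 genes were high in the same library of each genotype. SFPQ_KO 1 was the highest knockout library for 9 of the 10, all but Capn3, and for 37.8% of all tested genes. Cont 2 was the highest control library for 9, all but Anxa5, and for 49.2% of all tested genes. Both held at once for 8 of the 10 and for 25.3% of all tested genes. The lowest knockout library was SFPQ_KO 2 for 7 of the 10 (34.6% of all tested genes), SFPQ_KO 3 for 3 (36.4%) and SFPQ_KO 1 for 0 (29%). Among the controls, the lowest was Cont 1 for 7 (50.4%) and Cont 3 for 3 (20.4%). This pattern was noticed in these values and is given as a description, with no test. Over all tested genes, the deviations of SFPQ_KO 1 and Cont 2 from their group means had a correlation of 0.41 across genes, which are not independent replicates.

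No marker list summed highest of the knockout libraries in SFPQ_KO 1. The single markers Myh3 and Myod1 were nonetheless highest of all in SFPQ_KO 1 and Cont 2. Myh3 (myotube) stood at 4476, 3377 and 3336 TPM in knockout and 2094, 3774 and 2596 TPM in control. Myod1 (myoblast) stood at 604, 596 and 569 TPM in knockout and 274, 619 and 506 TPM in control. No other marker of those lists was highest of its group in both. Fbln2 (fibroblast) was, with Cont 3 also above SFPQ_KO 1. The part of these markers in the pattern was not tested. The dividing-cell markers were lowest of all in SFPQ_KO 1, at 7.55 TPM. The myotube markers summed to 63111 TPM in Cont 2, the lowest of the 6 libraries, and to 71027 TPM in SFPQ_KO 1. The smooth muscle actin Acta2, from the list of smooth muscle and pericyte markers, stood at 720, 832 and 623 TPM in the knockout libraries and 503, 1166 and 651 TPM in the control libraries. The other markers of that list above 1 TPM on average were likewise highest of all in Cont 2. Notch3 stood at 24.9, 28.1 and 16.7 TPM in knockout and 18.1, 37.7 and 24.9 TPM in control, and Pdgfrb at 1.86, 1.55 and 2.16 TPM in knockout and 1.87, 4.49 and 3.91 TPM in control. None of these 3 was highest of the knockout libraries in SFPQ_KO 1, and Myh11, Cnn1 and Rgs5 averaged below 1 TPM in both groups. With SFPQ_KO 1 and Cont 2 both left out, a choice made after seeing the data that leaves 2 libraries a group, the median difference of the 10 genes was 0.01. Trim72 was then at 0.23 and Cav3 at 0.46 (unadjusted p = 0.0200, adjusted p = 0.388), so the sole gene of the 10 under 0.05 before adjustment was Cav3.

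**Figure D3:**
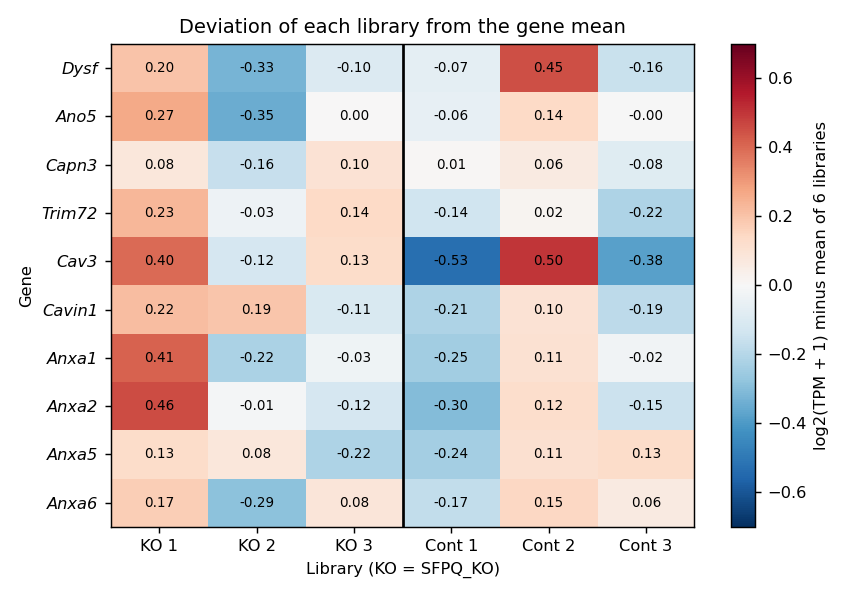
Deviation of each library from the mean of its gene over the 6 libraries, in log2(TPM + 1), with the SFPQ_KO libraries left of the Cont libraries. SFPQ_KO 1 and Cont 2 are above the mean for all 10 genes, and the extremes are both in Cav3, at 0.50 in Cont 2 and −0.53 in Cont 1.

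The 3 tested genes whose pattern over the 6 libraries was nearest to that of Trim72, the gene of the 10 with the smallest p, were Bad, Sh3glb2 and Nr2f6. Their distances, Euclidean over mean-centred log2(TPM + 1), were 0.08, 0.09 and 0.10, and their log2 differences were 0.23, 0.23 and 0.19 with limma adjusted p values of 0.424, 0.467 and 0.473.

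The promoters of Cav3 and Trim72 are shown because these are the most abundant muscle-restricted genes of the 10 and both stood high in SFPQ_KO 1. Each sequence is the 250 bases before the transcription start, from RefSeq on GRCm38.p6, read on the plus strand, with each match to the E-box CANNTG in capitals. The E-box is the hexamer that MyoD-family factors bind, and its pattern reads the same on both strands. The Trim72 window precedes a start that lies inside the span given above.
Cav3, chr6:112459255-112459504: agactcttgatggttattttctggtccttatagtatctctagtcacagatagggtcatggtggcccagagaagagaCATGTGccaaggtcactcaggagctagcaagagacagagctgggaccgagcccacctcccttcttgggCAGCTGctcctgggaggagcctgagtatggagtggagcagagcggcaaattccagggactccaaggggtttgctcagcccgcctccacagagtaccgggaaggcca
Trim72, chr7:128004128-128004377: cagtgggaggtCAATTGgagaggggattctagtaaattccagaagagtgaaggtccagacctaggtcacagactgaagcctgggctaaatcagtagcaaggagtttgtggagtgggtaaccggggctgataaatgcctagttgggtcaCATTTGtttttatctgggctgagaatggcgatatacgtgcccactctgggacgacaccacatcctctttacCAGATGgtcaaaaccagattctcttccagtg

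The Cav3 window held 2 such matches and the Trim72 window 3. CANNTG occurred in at least 1 window of 5 of the 9 genes with a window in the table, and in 66.2% of all 32851 windows of that length. The narrower form CAGCTG, a subset of CANNTG, was found for 2 of the 9, Cav3 and Capn3, and in 13% of all windows. The 9 genes had 12 windows between them, so counts by gene and shares by window are not like for like. A match is a description of the letters and shows no binding.

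Paralogs and partners of these genes, 68 in 8 lists chosen with earlier results of these data known, gave the setting. Of the 55 that passed the filter on low values, 0 reached an adjusted p under 0.05 in either direction (limma adjusted p from 0.251 to 0.999). At an unadjusted p under 0.05, 1 was higher and 4 were lower, and groups were separated upward for 1 and downward for 6. Their median log2 difference was 0.01, with 30 above and 25 below 0. The corresponding shares over all tested genes are those given above, 2.68% and 9.62%, and 4.27% and 15.3%.

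Within the caveolae the muscle forms far exceeded the broadly expressed ones. Cav1, a broadly expressed caveolin, averaged 5.76 TPM in knockout and 12.0 TPM in control, far below Cav3. It stood at 5.86, 6.34 and 5.09 TPM in the knockout libraries, against 17.2, 8.97 and 9.73 TPM in the control libraries. Every knockout library lay below every control library, and the log2 difference was −0.89 (SE 0.24, unadjusted p = 0.00767), which did not pass over all genes (limma adjusted p = 0.263). It was −0.62 without Cont 1, its highest library. Of the fibroblast and mesenchymal markers 6 were tested, with 5 differences below 0 and 1 above. The groups were separated downward for 2 of them, Col1a1 (−1.50) and Dpt (−1.24), as they were for 15.3% of all tested genes. They overlapped for Col3a1 (−0.34), Col1a2 (−0.13), Fbln2 (−0.0081) and Ly6a (0.38). Of the 6 markers, 0 passed (limma adjusted p from 0.269 to 0.998). Cav1 was highest in Cont 1, as were Pdgfra (1.41 TPM) and Dcn (4.39 TPM), which did not pass the filter on low values. Col1a1, Col1a2 and Thy1 were highest in Cont 3, and Dpt, Col3a1, Fbln2 and Lum in Cont 2. Ly6a was highest in SFPQ_KO 3. The dividing-cell markers also summed highest in Cont 1, at 30.9 TPM, and reached at most 22.2 TPM in knockout. The myoblast markers summed lowest in Cont 1, at 444 TPM, of which 274 TPM was Myod1. Myod1 alone of that list was lowest of all in Cont 1, and Myf5 was highest of all there, at 39.9 TPM. The part of all these markers in the Cav1 difference was not tested.

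Among the cavins, the muscle form Cavin4 was the most abundant and averaged 783 ± 77.0 TPM in knockout libraries and 751 ± 30.8 TPM in control (SD, n = 3 each), above Cavin1. Cavin3 averaged 50.6 TPM in knockout and 58.7 TPM in control, and Cavin2 23.0 and 34.6 TPM. Of these 5 caveolins and cavins besides Cav3 and Cavin1, 4 had differences below 0 and the median was −0.21. Among proteins of the caveolar neck and coat, Pacsin3, a membrane-bending protein, averaged 404 TPM in knockout and 399 TPM in control, the ATPase Ehd4 286 and 335 TPM, and Ehd1 127 and 114 TPM. This list of 7 had 0 genes under an unadjusted p of 0.05 and a median of 0.21.

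The other annexins held the single related gene that was higher at an unadjusted p under 0.05. Anxa3 stood at 58.6, 125 and 50.8 TPM in the knockout libraries, against 44.5, 19.3 and 41.4 TPM in the control libraries. The groups did not overlap, with SFPQ_KO 2 high and Cont 2 low. The log2 difference was 1.10 (SE 0.42, unadjusted p = 0.0367, limma adjusted p = 0.376), and it was 0.73 without Cont 2 and 0.71 without SFPQ_KO 2, both over an unadjusted p of 0.05 (0.101 and 0.0981). Anxa7 averaged 206 TPM in knockout and 184 TPM in control, Anxa11 192 and 198 TPM, and Anxa4 60.6 and 69.6 TPM. The S100 proteins, small calcium-binding partners of annexins, were led by S100a6 (870 ± 90.3 and 585 ± 309 TPM), S100a4 (835 ± 511 and 581 ± 161 TPM) and S100a10 (333 ± 85.0 and 308 ± 55.1 TPM, knockout and control, SD, n = 3 each). All 7 S100 genes were tested, with 0 under an unadjusted p of 0.05, and 6 had a difference above 0.

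Myof, the ferlin of myoblast fusion, was the single other ferlin tested, at 36.8, 19.7 and 22.7 TPM in the knockout libraries, against 12.0, 31.3 and 17.1 TPM in the control libraries. It averaged below Dysf in both genotypes. Myof was 1 of 22 among the 55 tested related genes (40%) that were highest in both SFPQ_KO 1 and Cont 2. The share over all tested genes was 25.3%, and the 2 shares were not compared by a test. The other 4 ferlins averaged below 1 TPM in both groups.

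The anoctamin Ano10 was lower in each knockout library, at 34.8, 33.6 and 32.7 TPM, against 40.8, 41.0 and 42.8 TPM in the control libraries. The libraries of each group were close together, and the log2 difference was −0.29 (SE 0.08, unadjusted p = 0.00645, limma adjusted p = 0.251). Its span is 119 kb. Ano6, a calcium-activated phospholipid scramblase, averaged 24.1 TPM in knockout and 25.6 TPM in control, and Ano8 17.7 and 18.2 TPM, so Ano5 was the most abundant anoctamin in the lists in both genotypes.

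Of 9 other calpain genes and calpastatin, 0 were under an unadjusted p of 0.05. The small regulatory subunit Capns1 averaged 632 TPM in knockout and 730 TPM in control, the ubiquitous calpains Capn2 173 and 146 TPM, and Capn1 149 and 169 TPM.

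Of 17 tested dysferlin partners and genes of vesicle fusion and membrane scission, 2 were lower at an unadjusted p under 0.05. Of all tested genes, 9.62% were lower at that level. Parvb, affixin, a dysferlin-binding adhesion protein, stood at 46.0, 53.3 and 45.0 TPM in the knockout libraries, against 55.5, 72.7 and 76.8 TPM in the control libraries. The groups were separated, with a log2 difference of −0.49 (SE 0.14, unadjusted p = 0.0116, limma adjusted p = 0.289). Vamp2, a vesicle SNARE, stood at 57.3, 63.7 and 58.1 TPM in knockout, against 66.8, 67.0 and 73.7 TPM in control. Its log2 difference was −0.21 (SE 0.08, unadjusted p = 0.0446, adjusted p = 0.391), and −0.14 after median-of-ratios scaling, with an unadjusted p of 0.155. With 1 library left out its unadjusted p was above 0.05, from 0.0537 to 0.157, for every library but SFPQ_KO 2, without which it was 0.0336. The most abundant genes of this list were the galectin Lgals1 (1984 and 1594 TPM in knockout and control), Bin1, which shapes T-tubules (1517 and 1497 TPM), and Lgals3 (220 and 209 TPM).

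**Figure D4:**
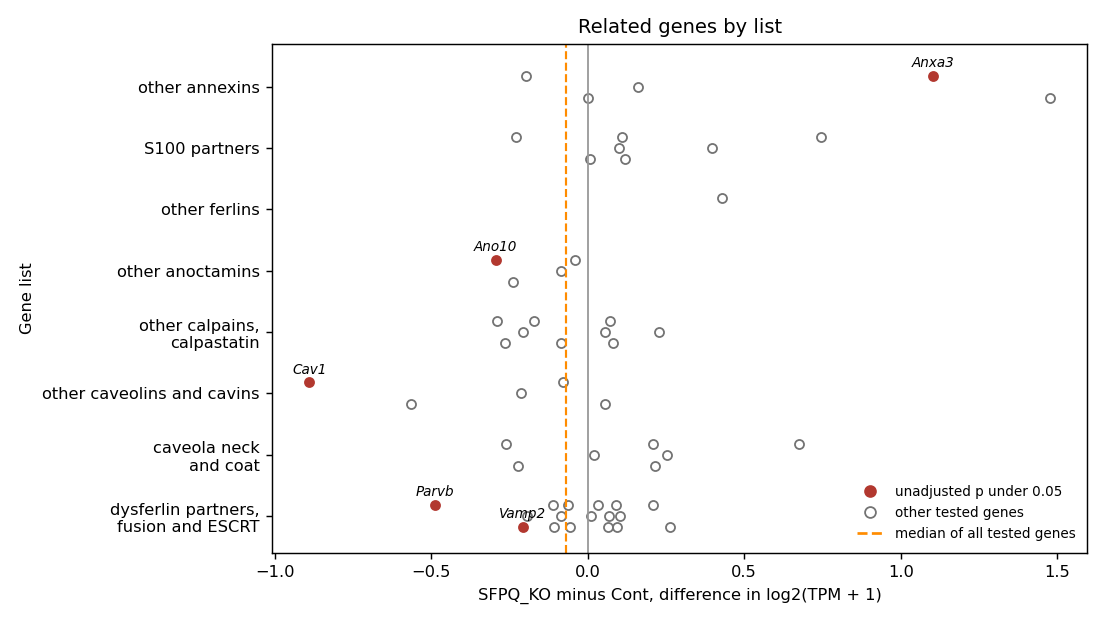
Difference between SFPQ_KO and Cont in log2(TPM + 1) for the 55 tested related genes in 8 lists, 1 point per gene; filled and named points have an unadjusted p under 0.05, and vertical offsets within a list only keep points apart. Anxa3 is the filled point above 0 (1.10) and Cav1 the lowest (−0.89); 0 genes passed after adjustment.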

How the data were processed

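PolyA RNA of 6 libraries, 3 SFPQ_KO and 3 Cont by their titles, was analysed from values deposited by the authors as TPM per RefSeq accession, summing to about 1000000 a library. STAR 2.4.1d and mm10 are named in the submitters' processing notes; no source used here names the quantification tool, annotation release or strand use. Of 34671 accessions, 30822 were named through a GRCm38.p6 RefSeq table and 103 through GENCODE, and 3746 (1.19% to 1.27% of TPM) kept their accession. TPM was summed to 34656 genes; each of the 10 genes had 1 accession, so a fit on single accessions (12464 tested) gave the same differences for them. A gene was kept where 3 or more libraries reached 1 TPM, and limma 3.58.1 (R 4.3.3) was fitted to log2(TPM + 1) over both groups (trend, no block, 2-sided, Benjamini-Hochberg at 0.05). Differences on this scale understate changes of low genes. Python 3.11.15, pandas 2.3.3 and matplotlib 3.10.9 were used for tables and plots, and the fit was tested on simulated data. The 10 genes, lists and tests were chosen with earlier results of these data known. Text names the 10 genes, Sfpq, the 3 genes most like Trim72 and up to 3 leading genes per marker list. From each related list it names up to 3 of the most abundant genes and those at an unadjusted p under 0.05. Other markers, named as low, at 0, separated, beside Cav1 or for their direction or library pattern, were chosen after their values were seen. Alternatives covered pseudocount, filter, scaling, moderation, a replicate block and each library left out.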

Additional observations from a re-analysis of the deposited data

How the results depend on the processing

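None of the 10 genes passed an adjusted p of 0.05 under any of 16 alternatives, 15 planned and the joint removal of SFPQ_KO 1 and Cont 2 chosen after seeing the data. Trim72, Cav3, Cavin1 and Anxa2 kept their direction in all 16, and the smallest adjusted p was 0.213. Signs turned for Ano5 (0.024), Anxa5 (0.069) and Anxa6 (0.050) with median-of-ratios scaling and for Anxa5 (0.039) and Anxa6 (0.0083) with quantile normalization. Leaving out 1 library at a time turned the sign of 6 genes, with ranges of −0.29 to 0.040 for Dysf, −0.19 to 0.11 for Ano5, −0.036 to 0.094 for Capn3, −0.072 to 0.24 for Anxa1, −0.12 to 0.10 for Anxa5 and −0.12 to 0.11 for Anxa6. The median of the 10 genes lay between −0.05 and 0.13 with 1 library left out. The count of the 10 higher at an unadjusted p under 0.05 was 2 with median-of-ratios scaling, 0 to 2 with 1 library left out and 1 with SFPQ_KO 1 and Cont 2 left out, and 0 were lower in all 16. Related genes higher at that level numbered 2 with no filter, 2 with either scaling, 0 with the replicate block, 1 to 5 with 1 library left out (5 without Cont 2) and 5 with both left out. Over all genes the adjusted calls were 2 higher and 11 lower with a pseudocount of 5, 1 and 6 where genes had to average 5 TPM, 1 and 1 without the limma trend, and 7 and 21 at an adjusted p under 0.1. Sfpq passed with a pseudocount of 5 (adjusted p = 0.0431) and with that mean filter (adjusted p = 0.0445). Same-numbered libraries had correlations of deviations of −0.26, −0.25 and 0.05. Deviations within a group of 3 sum to 0 for each gene, which ties these correlations to each other. They cannot tell whether the numbers pair the libraries. With the replicate block 0 of the 10 genes passed and Sfpq stood at −1.57 (limma adjusted p = 0.296). The causes of these shifts were not tested. Read depth is unknown, and 3 libraries a group set the widths of the intervals.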
